A study of Mus musculus with 21 samples.

Results

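Well known direct targets of the tumour suppressor p53 were followed through normal colon and colon tumours of mice. The 10 genes were Cdkn1a, Mdm2, Ccng1, Trp53inp1, Sesn2, Phlda3, Eda2r, Bbc3, Fas and Aen. These were taken by symbol as targets that act in cell cycle arrest and apoptosis, with earlier results of these data known. They are 10 of the 24062 genes in the count table, and all 10 were among the 15936 genes with enough counts to be tested.

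The transcription factor p53, encoded by Trp53 in the mouse, is kept scarce by the ubiquitin ligase Mdm2 and accumulates after DNA damage and other stresses. It binds DNA as a tetramer at response elements built of paired half-sites and raises transcription of genes that stop the cell cycle, repair damage or start apoptosis, and of Mdm2 itself, which closes a feedback loop. In the normal colon the pathway is best known for arrest and cell death in crypts exposed to radiation or DNA-damaging agents. RNA counts per gene hold no information on Trp53 mutations or on the amount and modification of the p53 protein.

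Total RNA from the colon of C57BL/6 mice was sequenced in 21 libraries, which form 7 groups of 3. Wild-type males gave normal colon and AOM/DSS tumours, wild-type females gave normal colon and AOM/DSS tumours, male mice with the App NL-G-F knock-in gave normal colon and AOM/DSS tumours, and knock-in females gave normal colon. Tumours of knock-in females were not analysed here. App NL-G-F is a version of App, the mouse gene of the amyloid precursor protein, into which mutations known from familial Alzheimer's disease were placed. AOM/DSS joins azoxymethane, a carcinogen that alkylates DNA, with dextran sulfate sodium, which damages the epithelium of the colon. Ages, doses and times of treatment are not given in the sources used here. The labels give the treatment of the normal libraries as none, whereas the text on the series' design names tissue next to tumours or from colons without tumours, so these libraries are called normal colon. Neither says whether each library comes from its own animal, so p-values measure only the spread between these libraries. The question of the series is why the App mutant background changed the outcome of AOM/DSS treatment in a way that depended on sex.

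Library totals ran from 3414123 counts in wild-type male tumour replicate 2 to 26174008 in wild-type female normal replicate 1, and 3 counts, taken as the floor, corresponded to 0.115 to 0.879 CPM, the usual scaling of counts to library size. The lowest count of any of the 10 targets was 18, for Bbc3 in wild-type female normal replicate 2. Counts per gene do not separate the App alleles, so the genotype labels were not checked. No pair of replicates agreed within sampling noise. All 11 markers of colonic epithelium were detected in every group. Of these, 9 fell in wild-type male, 11 in wild-type female and 1 in knock-in male tumours, with summed levels of 6934 to 15436 CPM in tumour and 12624.5 to 29520 CPM in normal libraries. Smooth muscle markers stood lower in all tumours: 8 of 8 fell in each of the 3 tumour comparisons, and their summed level was 206 to 1052 CPM in tumour libraries and 2005 to 9750 CPM in normal libraries. In wild-type female tumours 4 of 6 fibroblast markers rose and 1 fell, 3 of 4 endothelial markers rose, and 3 of 8 leukocyte markers rose and 2 fell. In wild-type male tumours 4 of 6 markers of enteric neurons and glia fell, and of each other of these lists at most 1 was called. Of the neuron and glia markers 1 of 6 rose and 2 fell in wild-type female tumours. In knock-in male tumours 2 of 8 leukocyte and 1 of 6 neuron and glia markers fell, and 1 of 6 fibroblast markers rose. The part of these differences in the results that follow was not tested, and in bulk tissue fewer cells of a type and less RNA per cell cannot be told apart. Library numbers 152 to 154, apart from all others, belong to replicates 2 and 3 of the wild-type female tumours and to replicate 3 of the knock-in male tumours, and where a target gains or loses a call without them, both values are given.

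Promoter sequences were examined first, because p53 acts on its direct targets through response elements in DNA, some of them near the start site. RefSeq promoter windows on GRCm38.p6, from 250 bases before to 50 bases after each annotated start, were found for 9 of the 10 genes, 13 windows in all. Trp53inp1 had no entry. The p53 consensus response element was searched as 2 abutting copies of the p53 consensus half-site with at most 3 mismatches in 20 bases, the C and G of the core CNNG being required in both. The consensus reads the same on both strands, so a single scan covers both. Matches lay in 5 windows of 4 genes, against 453 of 32851 windows (1.38%) of all genes. These genes were chosen as p53 targets, so the matches are a description and no independent evidence. The 4 elements follow, because they show how closely Cdkn1a and Ccng1 match the consensus, with the 4-base cores of both half-sites in capitals.
Cdkn1a: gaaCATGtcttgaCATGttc
Ccng1: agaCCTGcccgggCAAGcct
Bbc3: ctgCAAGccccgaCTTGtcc
Aen: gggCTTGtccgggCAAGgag

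The Cdkn1a element, on the plus strand at chr17:29090928-29090947, had 1 mismatch and lay at bases -51 to -32 from the upstream start. That of Ccng1, on the minus strand at chr11:40755462-40755481, also had 1 mismatch and lay at -195 to -176. Those of Bbc3 (chr7:16309486-16309505, plus strand, -97 to -78) and Aen (chr7:78895937-78895956, plus strand) had 3 mismatches each. Aen has a pair of annotated starts, and its element lay at -121 to -102 from one and at +11 to +30 from the other. An exact half-site was present in windows of Cdkn1a, Mdm2, Ccng1 and Aen, as in 2745 of all windows (8.36%). The windows of Sesn2, Phlda3, Eda2r and Fas held neither. Nor did the windows of the other annotated starts of Cdkn1a, at chr17:29093519-29093818, and of Bbc3. This says only that these letters are not in these windows.

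The 250 bases before the upstream Cdkn1a start, at chr17:29090729-29090978, and before the Phlda3 start, at chr1:135765835-135766084, are shown for the target with the highest RNA level and the one with the largest tumour difference. Both are on the plus strand of GRCm38.p6, and capitals mark the response element. G and C made up 54% of the Cdkn1a stretch and 71.2% of the Phlda3 stretch.
Cdkn1a: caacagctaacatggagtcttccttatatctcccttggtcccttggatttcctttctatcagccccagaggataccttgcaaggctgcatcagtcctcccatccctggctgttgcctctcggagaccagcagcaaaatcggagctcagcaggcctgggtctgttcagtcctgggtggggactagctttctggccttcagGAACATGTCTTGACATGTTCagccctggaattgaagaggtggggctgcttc
Phlda3: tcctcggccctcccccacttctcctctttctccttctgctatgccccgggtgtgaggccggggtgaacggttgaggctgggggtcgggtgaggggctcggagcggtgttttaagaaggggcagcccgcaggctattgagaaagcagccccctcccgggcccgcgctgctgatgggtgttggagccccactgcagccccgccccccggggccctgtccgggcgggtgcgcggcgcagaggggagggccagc

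The 10 targets differed widely in level. Per kilobase of the longest annotated transcript, and averaged over the 21 libraries, Cdkn1a stood highest at 72.6 CPM per kilobase, followed by Trp53inp1 at 42.1, Ccng1 at 31.2, Mdm2 at 21.1 and Phlda3 at 14.7. The other 5 lay between 2.33 for Eda2r and 4.84 for Fas. All values below that are not per kilobase are CPM with library sizes scaled by the TMM method, which compare libraries and not genes. Differences are log2 fold changes with their standard errors (SE), from the quasi-likelihood test of edgeR, with p-values adjusted by Benjamini-Hochberg over all 15936 genes and a threshold of 0.05.

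**Figure D1:**
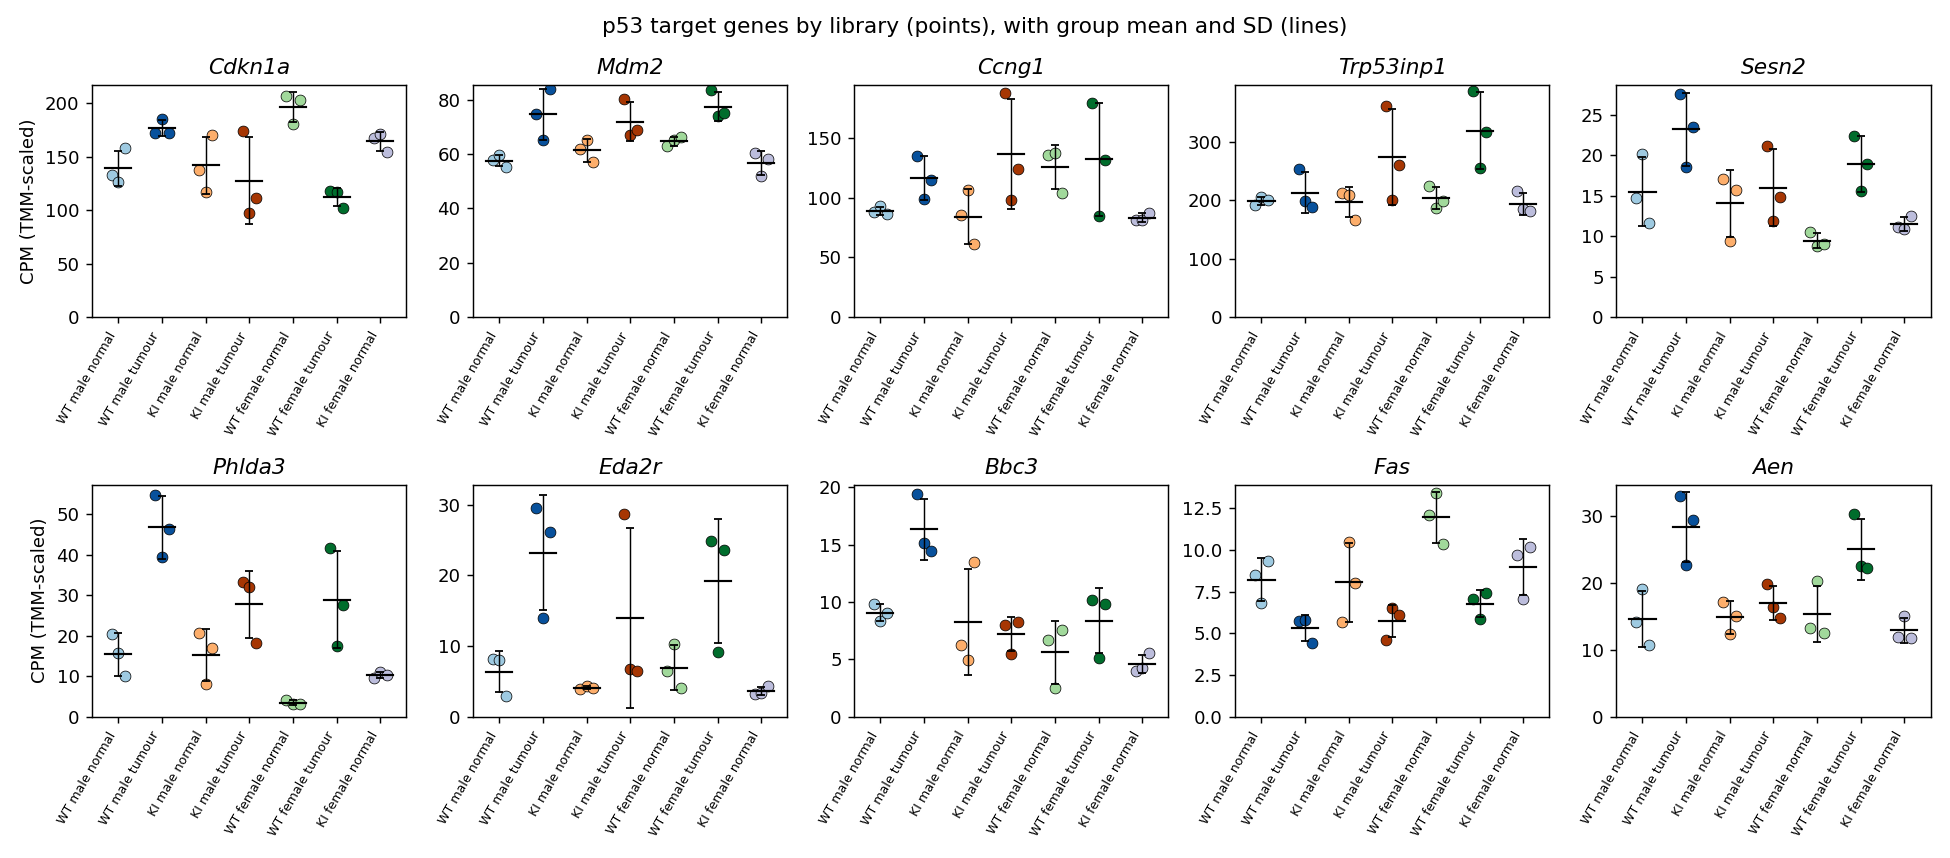
Level of each p53 target in CPM (y axis, from 0) in the 7 groups (x axis); each point is a library and horizontal lines and error bars give the mean and SD of 3 libraries. Phlda3, Eda2r and Aen stood higher in wild-type tumours than in wild-type normal colon on average, Fas stood lower, and Cdkn1a stood higher in tumours of wild-type males but lower in tumours of wild-type females.

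Tumours of wild-type mice of both sexes carried more Phlda3, Eda2r, Aen and Mdm2 RNA and less Fas RNA than normal colon. In wild-type males 4 targets rose and 1 fell, 5 of 10 in all, where 35.7% of all tested genes were called. In wild-type females 6 rose and 2 fell, where 49.1% of all tested genes were called. In knock-in males 1 target, Eda2r, rose, where 20.4% of all tested genes were called. The median log2 fold change of the 10 targets was 0.49 in males and 0.61 in females of wild-type mice and 0.21 in knock-in males, and that of all tested genes was 0.01 in each. The count in wild-type males was 3 without normal replicate 3, tumour replicate 1 or tumour replicate 3. In wild-type females it was 5 without normal replicate 1, normal replicate 3 or tumour replicate 1. For knock-in males it was 0 without normal replicate 3, 2 without tumour replicate 3 and 3 without tumour replicate 2.

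**Figure D2:**
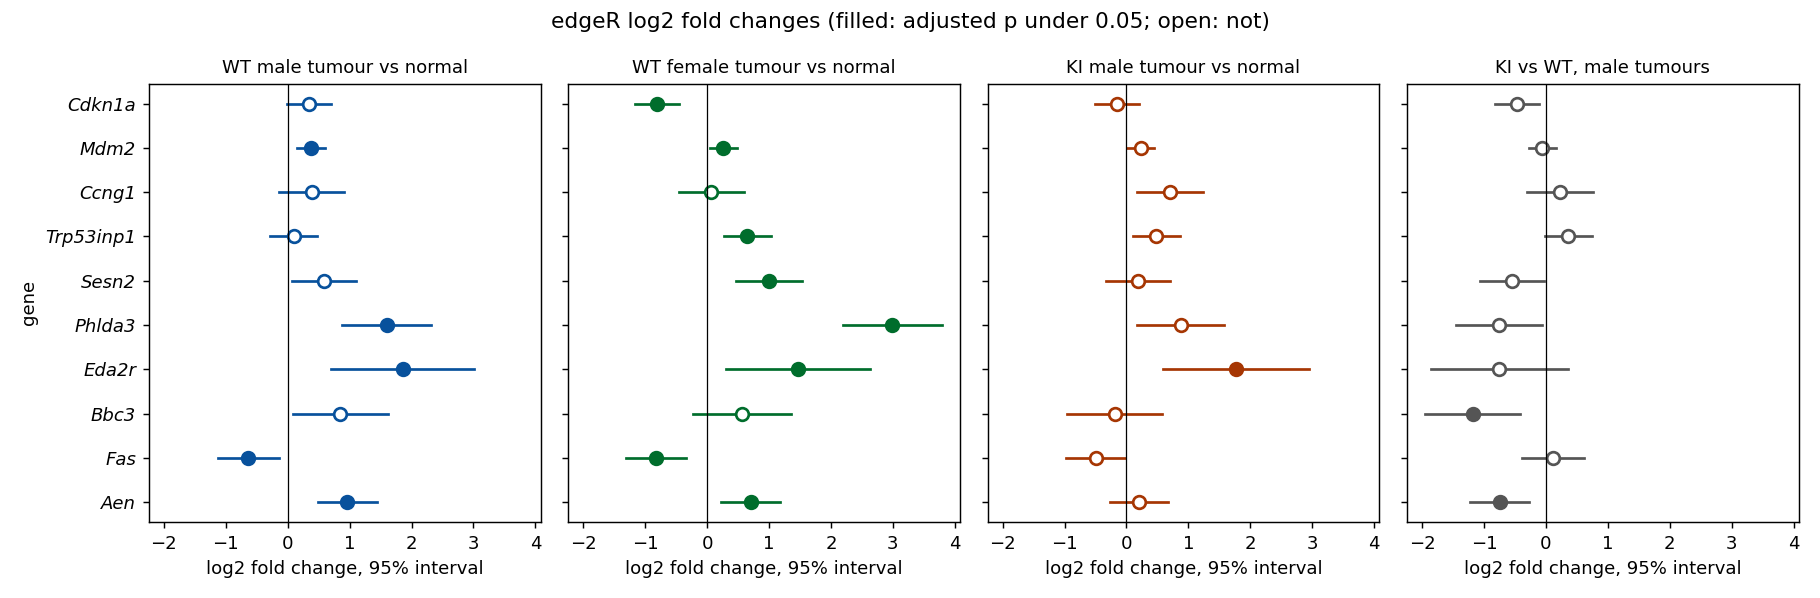
Log2 fold change (x axis) of each p53 target (y axis) in tumour against normal colon of wild-type males, wild-type females and knock-in males and in knock-in against wild-type male tumours; points are edgeR estimates, bars 95% intervals and filled points an adjusted p under 0.05. Phlda3 in wild-type females lies farthest right at 2.99, and Bbc3 in knock-in against wild-type male tumours lies at -1.18.

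Mdm2, the ubiquitin ligase that marks p53 for degradation, is the feedback arm of the pathway. Its level in wild-type males was 57.8, 59.5 and 55.3 CPM in normal colon and 74.7, 65.2 and 83.7 CPM in tumours. Wild-type females held 62.9, 65.1 and 66.1 CPM in normal colon and 83.5, 73.8 and 74.9 CPM in tumours. All tumour libraries lay above all normal libraries of the same sex and genotype, by a small margin. The log2 fold change was 0.38 in wild-type males (SE 0.10, edgeR adjusted p 0.00922) and 0.26 in females (SE 0.10, edgeR adjusted p 0.0473). Both calls were fragile: without tumour replicate 3 the male value was 0.28 (edgeR adjusted p 0.0666), and the female call was lost on leaving out any 1 of its 6 libraries, with edgeR adjusted p up to 0.173. The female difference was 0.25 with the replicate block (edgeR adjusted p 0.0727) and 0.39 without libraries 152 to 154 (edgeR adjusted p 0.0629). In knock-in males Mdm2 stood at 61.9, 65.3 and 56.9 CPM in normal colon and at 80.1, 66.8 and 68.7 CPM in tumours. These groups did not overlap either, but the difference of 0.23 (SE 0.10, edgeR adjusted p 0.122) did not pass.

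Cdkn1a encodes p21, the inhibitor of cyclin-dependent kinases through which p53 halts cells in G1. In wild-type females it measured 207, 181 and 202 CPM in normal colon and 118, 117 and 102 CPM in tumours. Every female tumour library thus lay below every female normal library, and Cdkn1a fell by 0.81 on the log2 scale (SE 0.17, edgeR adjusted p 0.00067), a call kept under all 18 alternatives run for this comparison.

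In wild-type males the order of Cdkn1a was the opposite, with 133, 126 and 158 CPM in normal colon and 172, 185 and 172 CPM in tumours. The male groups did not overlap, but the difference of 0.35 (SE 0.17, edgeR adjusted p 0.118) did not pass. The difference between the sexes was tested as an interaction, where 1.12% of all tested genes were called and Cdkn1a was the sole target called: its tumour difference was 1.16 log2 units lower in females than in males (-1.16, SE 0.24, edgeR adjusted p 0.0267). That call did not survive the replicate block (-1.15, edgeR adjusted p 0.0573) or the omission of libraries 152 to 154 (-1.06, edgeR adjusted p 0.205). It was also lost on leaving out male normal replicate 1 or 2, any male tumour replicate, female normal replicate 1 or female tumour replicate 3, with estimates between -1.17 and -1.09. Normal colon of females held more Cdkn1a RNA than that of males (0.50, SE 0.17, edgeR adjusted p 0.0492), a call lost on leaving out any of 5 libraries of these groups other than male normal replicate 3, with edgeR adjusted p up to 0.178. It was also lost with the replicate block (0.48, edgeR adjusted p 0.0763) and, although none of them is a normal library, without libraries 152 to 154 (0.48, edgeR adjusted p 0.0826).

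In knock-in males Cdkn1a measured 138, 117 and 170.5 CPM in normal colon and 174, 97.3 and 111 CPM in tumours. Tumour replicate 1 stood far above its group, and the groups overlapped. The log2 fold change was -0.15 (SE 0.17, edgeR adjusted p 0.539), and without tumour replicate 1 it was -0.49 (edgeR adjusted p 0.0276). Knock-in female normal colon held 167, 171 and 154 CPM.

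Ccng1 encodes cyclin G1, which acts with the phosphatase PP2A on Mdm2. It measured 88.2, 92.7 and 86.4 CPM in wild-type male normal colon and 135, 98.9 and 115 CPM in wild-type male tumours. The groups did not overlap, and the difference of 0.39 (SE 0.25, edgeR adjusted p 0.240) did not pass. In knock-in males the normal libraries gave 85.0, 106 and 60.9 CPM and the tumours 188, 98.3 and 124 CPM, a difference of 0.70 (SE 0.25, edgeR adjusted p 0.0564). That difference passed without normal replicate 2 (0.86, edgeR adjusted p 0.0416) and without tumour replicate 2 (0.86, edgeR adjusted p 0.0390). In wild-type females, with 136, 137 and 104 CPM in normal colon and 179.6, 84.5 and 132 CPM in tumours, the estimate was 0.07 (SE 0.25, edgeR adjusted p 0.843). The tumour libraries of both these groups were spread over a wide range.

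Trp53inp1, a nuclear stress protein that works with p53 and takes part in autophagy, rose in tumours of wild-type females. It measured 224, 187 and 199 CPM in female normal colon and 387, 255 and 317 CPM in female tumours, without overlap. The log2 fold change was 0.65 (SE 0.18, edgeR adjusted p 0.00645) and kept its call under all 18 alternatives. In wild-type males the groups overlapped, with 192, 206 and 200.3 CPM in normal colon and 253, 198 and 189 CPM in tumours (0.10, SE 0.18, edgeR adjusted p 0.710). In knock-in males the values were 213, 209.9 and 167 CPM in normal colon and 362, 201 and 260.1 CPM in tumours (0.48, SE 0.18, edgeR adjusted p 0.0662), and the difference was 0.63 without tumour replicate 2 (edgeR adjusted p 0.0290).

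Sesn2 encodes sestrin 2, a stress-induced inhibitor of the growth kinase complex mTORC1. Wild-type female normal colon held 10.5, 8.78 and 8.98 CPM and wild-type female tumours held 22.4, 15.6 and 18.9 CPM. All female tumour libraries lay above all female normal libraries, and Sesn2 rose by 1.00 on the log2 scale (SE 0.25, edgeR adjusted p 0.00326), again under all 18 alternatives. Male normal colon already stood higher, at 14.8, 20.1 and 11.6 CPM, and overlapped with male tumours at 27.7, 18.6 and 23.5 CPM (0.59, SE 0.25, edgeR adjusted p 0.0681). The male difference passed without normal replicate 2 (0.81, edgeR adjusted p 0.0274). In knock-in males the estimate was 0.19 (SE 0.25, edgeR adjusted p 0.602), with 17.1, 9.37 and 15.7 CPM in normal colon and 21.2, 11.9 and 14.9 CPM in tumours.

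Phlda3, a small pleckstrin-homology protein that competes with the kinase Akt for membrane lipids and so restrains it, showed the largest difference of the 10 targets in wild-type females, and one second to Eda2r in wild-type males. In wild-type females it measured 4.23, 3.21 and 3.10 CPM in normal colon and 41.6, 17.5 and 27.6 CPM in tumours. The lowest female tumour library thus stood far above the highest female normal library, and the log2 fold change was 2.99 (SE 0.38, edgeR adjusted p 7.31e-06), or 7.96-fold. In wild-type males it measured 20.4, 15.8 and 9.95 CPM in normal colon and 54.7, 39.3 and 46.2 CPM in tumours, without overlap. The male difference was 1.60 (SE 0.34, edgeR adjusted p 0.00167), or 3.03-fold. Both calls held under all 18 alternatives run for each comparison.

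Phlda3 also differed between groups of normal colon. Wild-type female normal colon held less Phlda3 RNA than wild-type male normal colon, with a difference of -2.10 on the log2 scale (SE 0.38, edgeR adjusted p 0.00152), without overlap and under all 18 alternatives. It also held less than knock-in female normal colon, which measured 9.58, 11.1 and 10.3 CPM: the knock-in value was 1.51 higher on the log2 scale (SE 0.38, edgeR adjusted p 0.0129), and 1.45 without wild-type female normal replicate 2 (edgeR adjusted p 0.0603). The smooth muscle markers went the same way as Phlda3 in these comparisons. Their summed level was 2005 to 4659 CPM in wild-type female, 2908 to 9716 CPM in wild-type male and 6942 to 9750 CPM in knock-in female normal colon. In wild-type tumours they went the opposite way, as 8 of 8 fell in each sex while Phlda3 rose. In wild-type female tumours 4 of 6 fibroblast markers rose and 1 fell, and 3 of 4 endothelial markers rose. In wild-type male tumours 1 of 6 fibroblast markers fell and 1 of 4 endothelial markers rose. Among normal libraries wild-type females stood below wild-type males in 2 of 8 smooth muscle, 3 of 6 fibroblast and 3 of 4 endothelial markers. Knock-in females stood above wild-type females in 3 of 8 smooth muscle, 3 of 6 fibroblast and 2 of 4 endothelial markers and below them in 3 of 11 epithelial markers. The part of these cell types was not tested. Tumours of females and males did not differ past the threshold (-0.70, SE 0.33, edgeR adjusted p 0.239), nor did the interaction of sex and tumour (1.39, SE 0.50, edgeR adjusted p 0.196) or of sex and genotype (1.54, SE 0.51, edgeR adjusted p 0.116).

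In knock-in males Phlda3 measured 20.7, 8.17 and 17.03 CPM in normal colon and 33.1, 31.9 and 18.3 CPM in tumours, with overlap. The estimate of 0.87 (SE 0.34, edgeR adjusted p 0.0724) did not pass, and it was 1.10 without tumour replicate 3 (edgeR adjusted p 0.0419) and 1.07 without libraries 152 to 154 (edgeR adjusted p 0.0361). With the replicate block it was 0.86 (edgeR adjusted p 0.0455), and with GC and length offsets it was 1.27 (edgeR adjusted p 0.0112).

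Eda2r and Fas are both members of the tumour necrosis factor receptor family, and they went in opposite directions. Eda2r binds the A2 form of ectodysplasin and signals to NF-kappaB and JNK. It measured 8.12, 8.09 and 2.98 CPM in wild-type male normal colon and 29.5, 13.97 and 26.1 CPM in wild-type male tumours. These groups did not overlap, and the log2 fold change was 1.86 (SE 0.55, edgeR adjusted p 0.0141), or 3.62-fold. The call was lost without normal replicate 3 (1.54, edgeR adjusted p 0.0709) and without tumour replicate 1 (1.63, edgeR adjusted p 0.0574).

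In wild-type females Eda2r measured 6.51, 10.3 and 4.03 CPM in normal colon and 24.9, 9.12 and 23.6 CPM in tumours. Tumour replicate 2 lay within the normal range, so the groups overlapped while the test was passed (1.46, SE 0.55, edgeR adjusted p 0.0359). The call was lost without normal replicate 1 or 3 or tumour replicate 1 or 3, with edgeR adjusted p of 0.101 to 0.124. In knock-in males normal colon held 3.92, 4.30 and 4.06 CPM and tumours held 28.7, 6.68 and 6.46 CPM, a difference of 1.77 (SE 0.56, edgeR adjusted p 0.0343). That difference rested on tumour replicate 1, without which it was 0.63 (edgeR adjusted p 0.351), and it was also lost on leaving out any of the 3 normal libraries, with edgeR adjusted p up to 0.101, and with the replicate block (1.51, edgeR adjusted p 0.0780).

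Fas encodes the death receptor that, once bound by its ligand, recruits Fadd and caspase 8. It was the sole target lower in tumours of both sexes of wild-type mice. Female normal colon held 12.1, 13.4 and 10.4 CPM and female tumours held 7.06, 5.85 and 7.39 CPM, without overlap, and Fas fell by 0.82 on the log2 scale (SE 0.23, edgeR adjusted p 0.00665). Without libraries 152 to 154 this was -0.74 (edgeR adjusted p 0.128), with 1 female tumour library left. In wild-type males it measured 8.50, 6.81 and 9.35 CPM in normal colon and 5.76, 5.82 and 4.42 CPM in tumours, and fell by 0.63 (SE 0.24, edgeR adjusted p 0.0434). The male call was lost on leaving out any library of these groups other than normal replicate 2, with edgeR adjusted p up to 0.169. The replicate block (-0.64, edgeR adjusted p 0.0541), the omission of libraries 152 to 154 (-0.64, edgeR adjusted p 0.0600) and offsets for the GC content and length of each gene (-0.49, edgeR adjusted p 0.0867) also ended it. In knock-in males, with 5.70, 10.4 and 8.04 CPM in normal colon and 4.63, 6.51 and 6.07 CPM in tumours, the groups overlapped (-0.50, SE 0.23, edgeR adjusted p 0.126), and the estimate was -0.73 without normal replicate 1 (edgeR adjusted p 0.0364).

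Bbc3, also called Puma, is a BH3-only protein that sets off the mitochondrial route of apoptosis. It measured 9.83, 8.31 and 9.05 CPM in wild-type male normal colon and 19.4, 15.1 and 14.5 CPM in wild-type male tumours. The groups stood clear of each other, but the difference of 0.85 (SE 0.36, edgeR adjusted p 0.0758) did not pass. With the replicate block it did (0.82, edgeR adjusted p 0.0473). In wild-type females the values were 6.72, 2.51 and 7.59 CPM in normal colon and 10.2, 5.15 and 9.79 CPM in tumours (0.56, SE 0.38, edgeR adjusted p 0.229), and in knock-in males 6.26, 4.94 and 13.5 CPM in normal colon and 7.96, 5.502 and 8.22 CPM in tumours (-0.19, SE 0.37, edgeR adjusted p 0.747).

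Aen, an exonuclease that helps to degrade DNA during apoptosis, rose in tumours of wild-type mice. Males held 14.2, 19.0 and 10.6 CPM in normal colon and 32.9, 22.7 and 29.3 CPM in tumours, without overlap. The log2 fold change was 0.96 (SE 0.23, edgeR adjusted p 0.00316) and passed under all 18 alternatives. Females held 13.3, 20.2 and 12.5 CPM in normal colon and 30.3, 22.5 and 22.2 CPM in tumours, a difference of 0.71 (SE 0.23, edgeR adjusted p 0.0155). The female call was lost without normal replicate 1 (edgeR adjusted p 0.0751), normal replicate 3 (0.0699) or tumour replicate 1 (0.0842). In knock-in males Aen measured 17.2, 12.3 and 15.0 CPM in normal colon and 19.8, 16.4 and 14.8 CPM in tumours, and the estimate was 0.20 (SE 0.22, edgeR adjusted p 0.547).

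Knock-in and wild-type male tumours were compared directly. Of the 10 targets 2 were lower in knock-in tumours and none higher, where 14.5% of all tested genes were called. Bbc3, at 7.96, 5.502 and 8.22 CPM against 19.4, 15.1 and 14.5 CPM, was lower by 1.18 on the log2 scale (-1.18, SE 0.37, edgeR adjusted p 0.0397). Aen, at 19.8, 16.4 and 14.8 CPM against 32.9, 22.7 and 29.3 CPM, was lower by 0.75 (-0.75, SE 0.22, edgeR adjusted p 0.0353). Neither gene's groups overlapped.

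Both calls were lost with offsets for the GC content and length of each gene (-0.77, edgeR adjusted p 0.137, for Bbc3 and -0.73, edgeR adjusted p 0.0560, for Aen), and without libraries 152 to 154 (edgeR adjusted p 0.0552 for Bbc3 and 0.0906 for Aen). The Bbc3 call was lost on leaving out any 1 of the 6 libraries, with edgeR adjusted p of 0.0530 to 0.143. The count of 2 became 0 without wild-type tumour replicate 1 or 3 or knock-in tumour replicate 2 or 3, 1 (Aen) without wild-type tumour replicate 2 and 3 (Aen, Cdkn1a and Eda2r) without knock-in tumour replicate 1. Estimates for the other targets were -0.47 for Cdkn1a, -0.75 for Phlda3, -0.75 for Eda2r, -0.55 for Sesn2, -0.06 for Mdm2, 0.23 for Ccng1, 0.36 for Trp53inp1 and 0.12 for Fas, none of them past the threshold. Without knock-in tumour replicate 1, the library with the highest values of most targets in its group, Cdkn1a was at -0.80 (edgeR adjusted p 0.00746) and Eda2r at -1.88 (edgeR adjusted p 0.0220). Of the epithelial markers 2 of 11 were higher in knock-in tumours, with summed levels of 9841 to 15436 CPM against 8464 to 8742 CPM, and the smooth muscle markers summed to 905 to 1052 CPM against 231 to 797 CPM, with 0 of 8 called. Of the fibroblast markers 1 of 6 was higher, of the neuron and glia markers 1 of 6 higher and of the leukocyte markers 1 of 8 lower. Their part in the differences was not tested.

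Whether the tumour difference itself depended on genotype was tested as an interaction in males. By edgeR 0 of the 10 targets were called, where 1.51% of all tested genes were called, and 1 target had an unadjusted p under 0.05. That was Aen, whose tumour difference was 0.76 log2 units smaller in knock-in males (-0.76, SE 0.32, edgeR adjusted p 0.152). DESeq2 also called 0 and limma voom with quality weights called 2. The interval for Bbc3 was -2.12 to 0.04 and that for Phlda3 -1.72 to 0.27, so differences of more than 1 log2 unit between the genotypes lie within the precision of 3 libraries a group.

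In normal colon of knock-in against wild-type males no target passed. By edgeR 0 of 10 were called, where 0.0126% of all tested genes were called, 0 had an unadjusted p under 0.05, and DESeq2 and limma voom also called 0. Intervals ran from -0.13 to 0.31 for Mdm2 and from -0.32 to 0.38 for Cdkn1a, but from -1.83 to 0.52 for Eda2r. In females 1 target, Phlda3, was higher in knock-in normal colon, where 16% of all tested genes were called, and this count was 0 without wild-type female normal replicate 2. Wild-type normal colon differed between the sexes in 2 targets, Cdkn1a higher and Phlda3 lower in females, where 15.9% of all tested genes were called. That count was 3 without male normal replicate 3 and 1 on leaving out any other library of these groups.

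The remaining contrasts called none of the 10 by edgeR. Female against male tumours of wild-type mice gave 0, where 0.86% of all tested genes were called, with 3 targets at an unadjusted p under 0.05, 1 call by DESeq2 and 4 by limma voom. These 3 estimates were -0.97 for Bbc3 (SE 0.37, edgeR adjusted p 0.150), -0.65 for Cdkn1a (SE 0.17, edgeR adjusted p 0.0593) and 0.58 for Trp53inp1 (SE 0.18, edgeR adjusted p 0.0935). Knock-in female against knock-in male normal colon gave 0, where 0.584% of all tested genes were called, with 1 target at an unadjusted p under 0.05 and 0 calls by DESeq2 and limma voom. The interaction of sex and genotype in normal colon gave 0, where 2.54% of all tested genes were called, with 1 target at an unadjusted p under 0.05, 1 call by DESeq2 and 0 by limma voom.

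Trp53 itself rose in tumours. It measured 72.0, 70.6 and 50.1 CPM in wild-type male normal colon and 128, 123 and 119 CPM in wild-type male tumours, a rise of 0.94 on the log2 scale (SE 0.13, edgeR adjusted p 4.19e-05). The wild-type female values were 32.3, 33.9 and 29.1 CPM in normal colon and 109, 103 and 108 CPM in tumours, a rise of 1.75 (SE 0.13, edgeR adjusted p 8.30e-08). Both differences were far wider than the spread within groups and passed under all alternatives run. Knock-in tumours, at 74.3, 76.2 and 88.1 CPM, stood above knock-in male normal colon, at 63.5, 51.3 and 67.6 CPM (0.39, SE 0.13, edgeR adjusted p 0.0400), a call that was lost on leaving out any library of these groups other than normal replicate 3, with edgeR adjusted p up to 0.235. They stood below wild-type male tumours without overlap (-0.63, SE 0.13, edgeR adjusted p 0.00786), under all alternatives run. The female tumour difference in Trp53 exceeded the male one by 0.81 (SE 0.18, edgeR adjusted p 0.0405), and Trp53 was lower in normal colon of wild-type females than of wild-type males by 1.02 (-1.02, SE 0.13, edgeR adjusted p 8.90e-05). These 2 differences between the sexes were not recomputed under the alternatives.

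Trp53 and genes that regulate p53 or are related to it formed a list of 18, of which 17 were in the table. In wild-type males 5 rose and 1 fell, in wild-type females 6 rose and 1 fell, and in knock-in males 5 rose and 0 fell. All tested genes were called at 35.7%, 49.1% and 20.4% in the same order. The number that rose in knock-in males was 1 to 3 when 1 library was left out and 0 in a fit of these 2 groups alone. In wild-type males 3 rose without tumour replicate 3 and 0 fell without normal replicate 3. In wild-type females 0 fell without normal replicate 1, tumour replicate 1 or tumour replicate 2. Hipk2, a kinase that phosphorylates p53, rose by 0.67 in wild-type males (SE 0.15, edgeR adjusted p 0.00190) and by 1.05 in females (SE 0.15, edgeR adjusted p 1.70e-05). Cdkn2a, which encodes the Mdm2 inhibitor p19Arf and the kinase inhibitor p16, had raw counts of 82, 54 and 1 in wild-type male normal colon and of 209, 37 and 219 in wild-type male tumours (2.49, SE 0.77, edgeR adjusted p 0.0183, and 0.0590 without tumour replicate 3). Wild-type female normal colon had 4, 0 and 0 counts and female tumours 77, 35 and 87. Rfwd2, the ubiquitin ligase Cop1, fell in wild-type males (-0.54, SE 0.15, edgeR adjusted p 0.00765, and 0.0582 without normal replicate 3).

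Among the relatives of p53, Trp63 was counted 730, 0 and 0 times in wild-type male normal colon and 1, 2042 and 138 times in knock-in male tumours, so single libraries carried its reads and no fold is given. Trp73 and Mdm4 did not pass in any comparison of tumour with normal colon, with Mdm4 at -0.19 and -0.28 in males and females of wild-type mice and 0.21 in knock-in males. Against wild-type male tumours, knock-in male tumours held more Mdm4 RNA (0.42, SE 0.12, edgeR adjusted p 0.0342). That call was lost with GC and length offsets (0.15, edgeR adjusted p 0.461) and on leaving out any library of these groups other than knock-in tumour replicate 3, with edgeR adjusted p up to 0.190. Trp73 also passed in that comparison (edgeR adjusted p 0.0487), with 2, 73 and 10 counts against 3, 0 and 4, so that 1 library, knock-in tumour replicate 2, held most of its reads. In knock-in males Atr, a kinase that senses stalled replication, rose by 0.65 (SE 0.15, edgeR adjusted p 0.00767, and 0.0605 in a fit of these 2 groups alone), and Chek1, its effector, by 0.84 (SE 0.28, edgeR adjusted p 0.0445). The Chek1 call was lost on leaving out any library of these groups other than tumour replicate 1, with edgeR adjusted p up to 0.204.

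A list of 30 other p53 targets was counted in the same way. In wild-type males 10 rose and 5 fell, in wild-type females 10 rose and 4 fell, and in knock-in males 1 rose and 1 fell. The shares of all tested genes called were 35.7%, 49.1% and 20.4% in these comparisons. The number that rose was 3 in wild-type males without normal replicate 3, 5 or 6 without normal replicate 1 or either of tumour replicates 1 and 3, and 6 in wild-type females without normal replicate 2 or tumour replicate 1. The number that fell in wild-type males was 2 without normal replicate 3 and 3 without tumour replicate 3. The number that rose in knock-in males was 3 without tumour replicate 3, 2 without normal replicate 1 or tumour replicate 2, and 4 with libraries 152 to 154 as a covariate. Without those libraries 5 rose and 2 fell in wild-type females. Their median log2 fold change was 0.14, -0.03 and 0.19 in that order. Pidd1, a scaffold of a caspase 2 complex, measured 9.45, 9.44 and 8.26 CPM in wild-type male normal colon and 28.6, 15.1 and 20.6 CPM in tumours (1.26, SE 0.28, edgeR adjusted p 0.00183), and it also rose in females (1.19, SE 0.28, edgeR adjusted p 0.00195). Triap1 and Cd82 moved the other way: Triap1, an inhibitor of the apoptosome, fell in males (-0.74, SE 0.17, edgeR adjusted p 0.00244) and females (-0.66, SE 0.17, edgeR adjusted p 0.00287), and Cd82, a membrane protein of the tetraspanin family, fell in females (-1.06, SE 0.14, edgeR adjusted p 6.88e-06). Without libraries 152 to 154, with 1 female tumour library left, the female Triap1 call was lost. Cd82 also fell in knock-in males (-0.54, SE 0.14, edgeR adjusted p 0.0123). In wild-type males Sesn1 (-0.97, SE 0.26, edgeR adjusted p 0.00753) and Perp (-0.89, SE 0.29, edgeR adjusted p 0.0253) fell by more than Triap1.

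Trp53cor1, the long noncoding RNA next to Cdkn1a, was counted 3, 0 and 2 times in wild-type female normal colon and 39, 8 and 25 times in female tumours. It was at least 8.87-fold higher in the tumours, taking 3 counts per library as the floor, and at least 5.43-fold higher without tumour replicate 1. Gdf15, a secreted stress cytokine, measured 3.45, 3.82 and 4.18 CPM in wild-type male normal colon and 7.13, 15.7 and 15.0 CPM in tumours (1.71, SE 0.65, edgeR adjusted p 0.0493), a call lost on leaving out any library other than tumour replicate 1, with edgeR adjusted p up to 0.128, and with the replicate block (0.0736).

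Between knock-in and wild-type male tumours 2 of the 30 were higher and 4 lower in knock-in tumours, where 14.5% of all tested genes were called. Bax, the pore-forming protein of apoptosis, was lower (-0.80, SE 0.20, edgeR adjusted p 0.0166), at 30.5, 25.97 and 26.5 CPM against 52.7, 34.9 and 55.4 CPM. The call was lost without wild-type tumour replicate 1 (edgeR adjusted p 0.0578), wild-type tumour replicate 3 (0.0744) or knock-in tumour replicate 2 (0.0654), and with GC and length offsets (0.134). The calls of Perp and Rchy1, which were higher, and of Gdf15 and Pidd1, which were lower, were each lost under at least 8 of their 18 alternatives, and when 1 library was left out the higher ones numbered 0 to 3 and the lower ones 0 to 5.

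**Figure D3:**
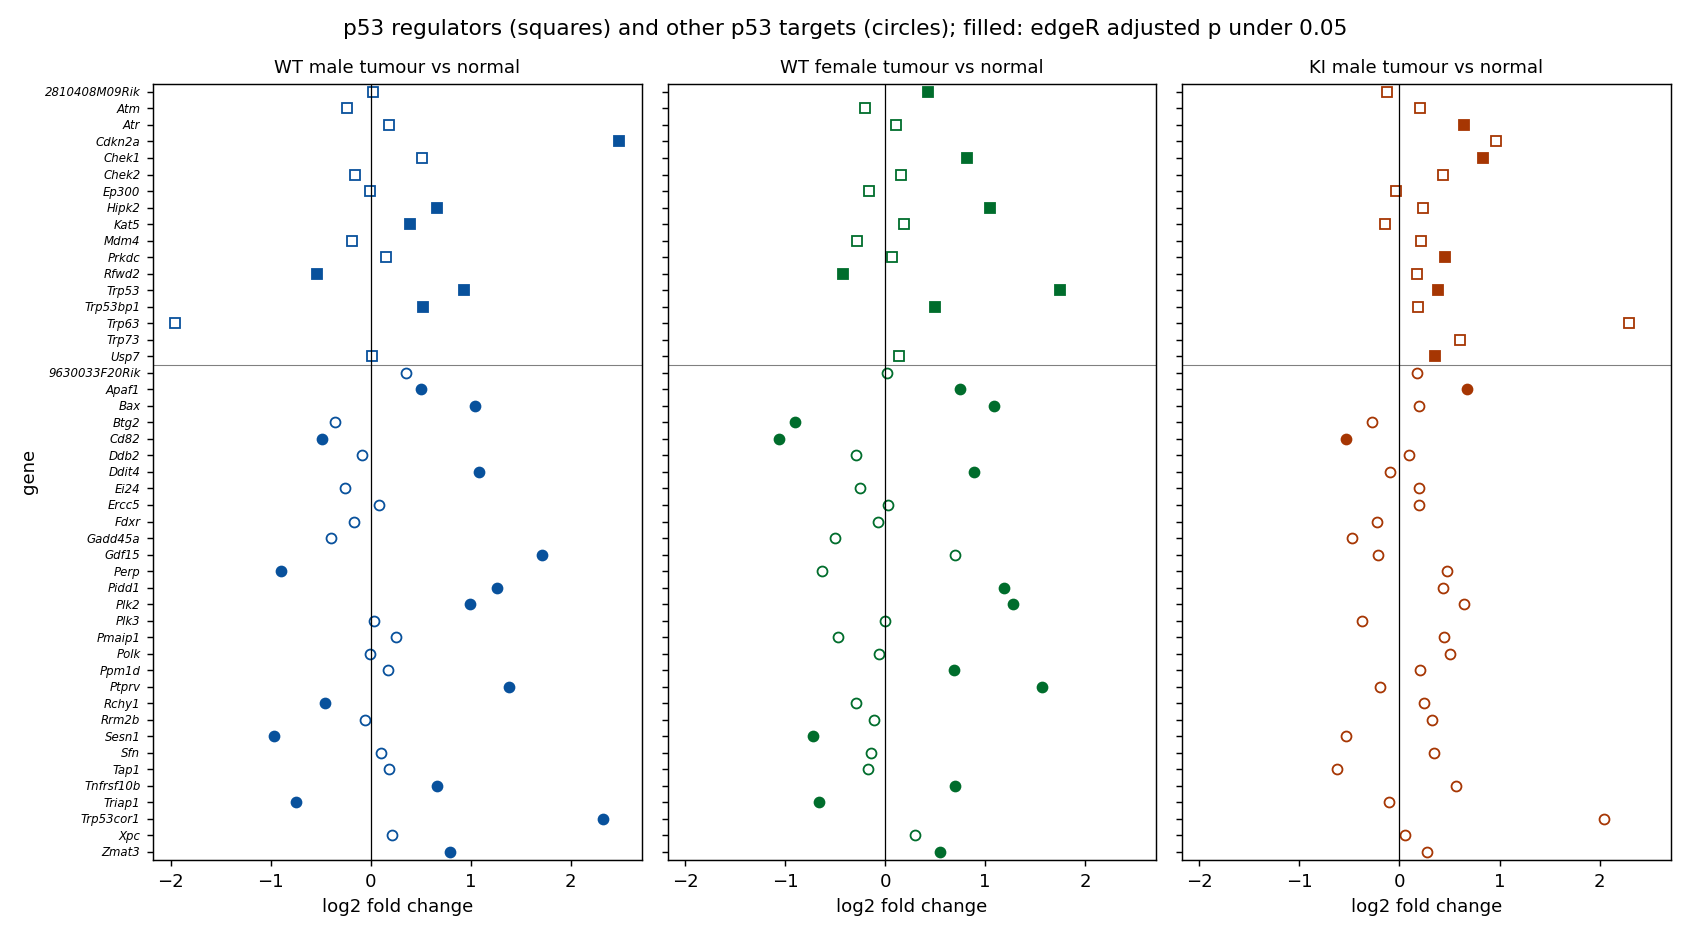
Log2 fold changes (x axis) of p53 regulators (squares) and other p53 targets (circles), 1 gene per row, in the 3 tumour comparisons (panels); a symbol is filled where the edgeR adjusted p is under 0.05, and a gene with a mean under 5 counts in either group has no symbol. Filled circles lie on both sides of 0, with 10 higher and 5 lower in wild-type males, 10 and 4 in wild-type females (Trp53cor1, one of the 10, has no symbol there) and 1 and 1 in knock-in males.

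Downstream of p21, the 12 cell cycle genes that p53 represses through the DREAM complex were counted as a group. In wild-type males 5 rose, in wild-type females 10 and in knock-in males 11, with none lower. Among all tested genes 35.7%, 49.1% and 20.4% were called, higher or lower, in the same order. The count in wild-type males was 2 without normal replicate 3 or tumour replicate 1 and 3 without normal replicate 1 or tumour replicate 3, and it was 9 in a fit of these 2 groups alone. For knock-in males it was 4 without tumour replicate 2, 6 and 7 without normal replicate 1 and 3, and 0 in a fit of these 2 groups alone, and 1 fell without normal replicate 2 or tumour replicate 2. Mybl2, which turns the repressor complex into an activator, rose by 1.08 in wild-type males (SE 0.27, edgeR adjusted p 0.00503) and by 1.63 in females (SE 0.28, edgeR adjusted p 0.000107). Ccnb1, the mitotic cyclin B1, rose by 1.32 in knock-in males (SE 0.25, edgeR adjusted p 0.00300, and 0.0600 in the fit of these 2 groups alone).

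Of the 16 other inhibitors and partners of the G1 kinases, 7 rose and 2 fell in wild-type males and 8 rose and 3 fell in wild-type females. In knock-in males 5 rose and 1 fell. The shares of all tested genes called were 35.7%, 49.1% and 20.4% in that order. The number that rose was 3 in wild-type males without tumour replicate 1 or 3, 4 without normal replicate 1 or 3, and in knock-in males 2 without tumour replicate 2 and 3 without normal replicate 2 or 3. The number that fell in wild-type males was 1 without either of normal replicates 1 and 3 or any 1 tumour replicate, and in knock-in males it was 0 without normal replicate 3 or tumour replicate 3. Cdk4, the G1 kinase, rose by 1.11 in wild-type males (SE 0.15, edgeR adjusted p 4.07e-05) and by 0.72 in knock-in males (SE 0.15, edgeR adjusted p 0.00479), and Ccnd1, its partner cyclin D1, rose by 1.72 in females (SE 0.18, edgeR adjusted p 1.07e-06) and by 0.91 in knock-in males (SE 0.18, edgeR adjusted p 0.00357). Cdk4 also stood higher in wild-type female tumours, at 143 to 177 CPM against 45.1 to 53.2 CPM in normal colon. Ccnd1 did so in wild-type male tumours, at 268 to 293 CPM against 121 to 145 CPM. Cdkn1b, which encodes the kinase inhibitor p27 and is a sister gene of Cdkn1a, fell by 0.87 in wild-type males (SE 0.18, edgeR adjusted p 0.00148) and by 0.68 in females (SE 0.18, edgeR adjusted p 0.00470). Cdkn1c, another inhibitor of the list, went the other way. It rose by 1.75 in wild-type males (SE 0.55, edgeR adjusted p 0.0210) and by 2.86 in females (SE 0.59, edgeR adjusted p 0.000826).

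The death receptor and Bcl-2 family held 17 genes, of which 16 were tested, the Fas ligand gene Fasl being too low. In wild-type males 3 rose and 2 fell, and in wild-type females 5 rose and 1 fell. In knock-in males edgeR called 0 of 16, with 4 at an unadjusted p under 0.05, 0 calls by DESeq2 and 1 by limma voom. Among all tested genes edgeR called 35.7%, 49.1% and 20.4% in that order. In wild-type males 0 fell without normal replicate 3 and 1 without any 1 tumour replicate, and 6 rose with GC and length offsets. In wild-type females 3 rose without normal replicate 2, and 2 fell without normal replicate 3 or tumour replicate 1. In knock-in males 1 rose without normal replicate 2 or tumour replicate 2. Bcl2l11, the BH3-only protein Bim, rose by 1.41 in wild-type males (SE 0.28, edgeR adjusted p 0.00107) and by 1.78 in females (SE 0.29, edgeR adjusted p 8.07e-05). Bcl2l1, which encodes the survival protein Bcl-xL, rose by 1.03 and 1.27 (SE 0.15 in both, edgeR adjusted p 5.76e-05 and 2.86e-06), while Mcl1, another survival protein, fell in females (-0.61, SE 0.16, edgeR adjusted p 0.00413). Mcl1 also fell in wild-type males (-0.45, SE 0.16, edgeR adjusted p 0.0365), a call lost without normal replicate 3. Genes that favour and genes that oppose cell death were thus both among those that rose.

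In each tumour group 1 library was the highest of its group for most of the 10 targets. Knock-in male tumour replicate 1 was the highest of its group for 8 of the 10 targets, the exceptions being Bbc3 and Fas. Wild-type female tumour replicate 1 was the highest for 9 of 10, all but Fas, and replicate 2 of that group was the lowest for 8. Replicate 1 is also the only library of that group outside numbers 152 to 154, so replicate and library number cannot be told apart there. Wild-type male tumour replicate 1 was the highest for 7. In the normal groups no library was the highest for more than 5. After the group mean was taken from each log2 CPM value, Pearson's r over the 21 libraries had a median of 0.29 over the 45 pairs of targets and ran from -0.54 to 0.85, the highest being that of Ccng1 and Trp53inp1. These libraries share depth and tissue composition across genes, so the correlations and the counts of highest and lowest libraries are a description. The same counts over all tested genes are not given here.

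**Figure D4:**
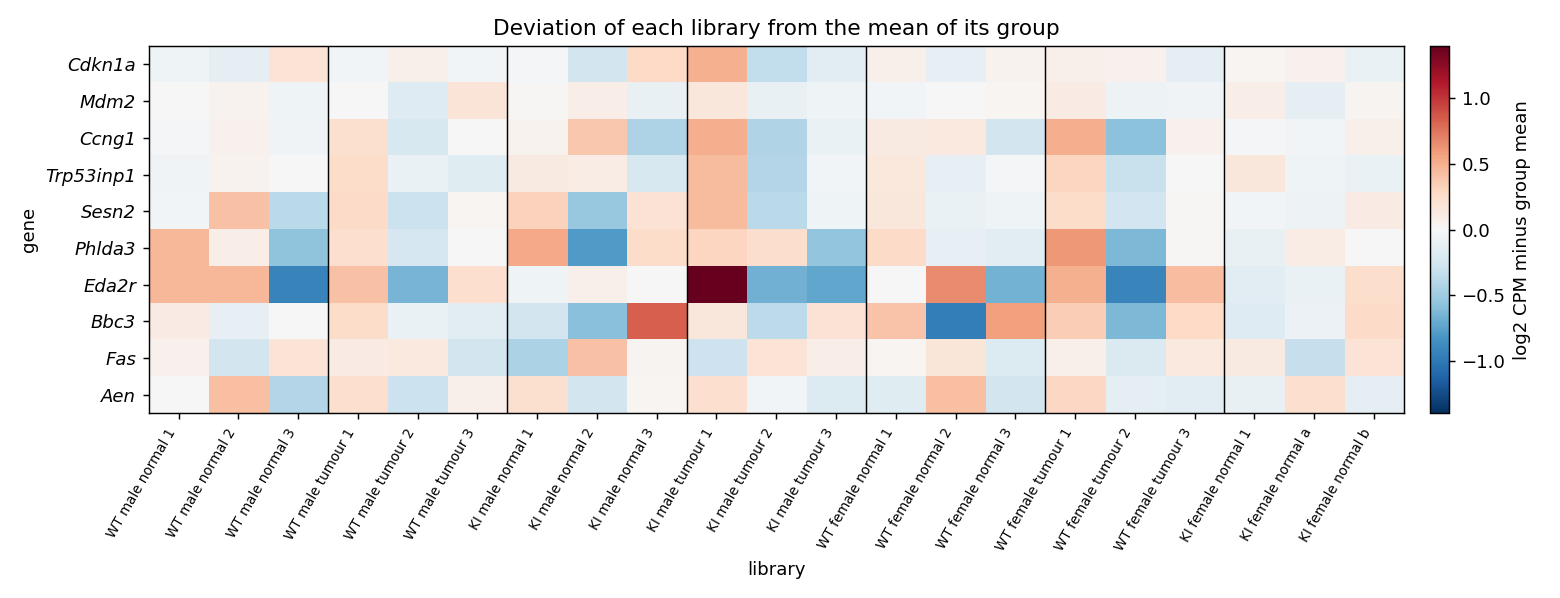
Log2 CPM of each p53 target (rows) minus its group mean in the 21 libraries (columns, by group); colour gives the deviation in log2 units. Knock-in male tumour replicate 1 and wild-type female tumour replicate 1 are above their group mean for most targets, and wild-type female tumour replicate 2 is below it.

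The genes whose deviations were most like the mean of the 10 targets, over 21 libraries and 15926 other tested genes, were Uros (r 0.88), Exoc4 (0.87), Stk32a (0.87), Pvt1 (0.86) and Noxred1 (0.86), where all other genes had a median of 0.01 and a range of -0.89 to 0.88. Of the 30 further p53 targets 21 had an r above 0, with a median of 0.18. The highest were Trp53cor1 (0.86), Zmat3 (0.77), Bax (0.65) and Polk (0.63), and the lowest were Cd82 (-0.57) and Perp (-0.50).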

How the data were processed

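Per the labels' protocols, total RNA was extracted with Qiazol, freed of ribosomal RNA by RNase H digestion, reverse transcribed from random hexamers and read on a NovaSeq instrument. The deposited table holds raw counts for 24062 genes. The submitters' processing notes name Trimmomatic, HISAT2, featureCounts, DESeq2 and mm10, without versions. The annotation and strand setting are not given in the sources used here, so reads of overlapping genes cannot be told apart; Cdkn1a, Sesn2 and Fas overlap annotated genes that have no row of their own. A further deposited table, with the authors' own comparisons, was not used here. Among the count columns, 2 of knock-in female normal colon carry the same name and were used as unnumbered replicates.

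The 10 targets and all lists were chosen with earlier results of these data known. They are named in full, and of each list up to 3 higher and 3 lower genes were eligible, those with the largest differences among called genes with a mean of at least 50 counts in a group and no overlap between groups. Older symbols were matched through RefSeq.

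The main test was edgeR 4.0.16 (R 4.3.3), quasi-likelihood, two-sided, with TMM scaling, filterByExpr by group (15936 genes), robust fitting, 1 coefficient per group and all 21 libraries in 1 fit, giving 9 comparisons and 3 interactions. Each standard error is the log2 fold change divided by the root of F. Log2 CPM used a prior count of 2. With 3 against 3 libraries an exact permutation test of single values cannot go below 0.1, so none is given. In simulated data for the wild-type male tumour comparison 200 of 15936 genes were changed, all with an expected count above 50 at median library size. There edgeR recovered 72% of changes of 1 log2 unit and 97% of changes of 2, with 9 false calls. In the data themselves 35.7% of genes were called, so these rates need not hold there or at lower counts. Alternatives were DESeq2 1.42.0 size factors and Wald test, library totals, other count filters, a fit of the compared groups alone, limma 3.58.1 voom with quality weights, the replicate number as a block, libraries 152 to 154 as a covariate or left out, GC and length offsets (95.3% of genes had these), and the omission of each library.

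Same-numbered libraries of wild-type male tumour and normal colon deviated together (r 0.169, 0.174 and 0.215). Every r there exceeded 0.1, which was so in no other comparison checked. A single r reached 0.461 between replicates 1 of knock-in and wild-type male normal colon, which differ in genotype. Differently numbered libraries were not correlated, so these values cannot settle whether the numbers mark pairs. The main test used no pairing. The block was a replicate term shared by the 18 numbered libraries of 6 groups, and so not a paired fit of the wild-type male libraries alone. Where the block changes the call of a target, its value stands beside the result. Gene positions follow GENCODE M21 on GRCm38.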

Additional observations from a re-analysis of the deposited data

Results flagged for a closer look

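Cdkn1a was marked because the difference between tumour and normal colon in wild-type mice itself differed between the sexes. The interaction was -1.16 log2 units (SE 0.24, edgeR adjusted p 0.0267), with tumours below normal colon in all 3 female libraries and above it in all 3 male libraries. The difference was not called under 11 of the 24 alternatives, among them the replicate block and the omission of libraries 152 to 154.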

How the results depend on the processing

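For the 10 targets, 44 differences were recomputed under 796 alternatives in all: 654 kept direction and side of the threshold, 87 lost the call, 31 gained one and 24 changed sign. Differences called under every alternative run were those of Phlda3 and Aen in wild-type male tumours, of Cdkn1a, Trp53inp1, Sesn2 and Phlda3 in wild-type female tumours and of Phlda3 between the sexes in wild-type normal colon. The cause was not tested for any change below.

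The number of targets called in wild-type male tumours was 5 and became 8 with limma voom, and 3 to 6 on leaving out 1 library. In knock-in male tumours it was 1 and became 3 with DESeq2, 0 with limma voom or only the compared groups, 4 with libraries 152 to 154 as a covariate, 2 without them or with GC and length offsets, and 0 to 3 on leaving out 1 library. In wild-type female tumours it was 8, with 5 to 7 on leaving out 1 library. Between male tumours of both genotypes it was 2 and became 6 with limma voom, 0 with the covariate, without libraries 152 to 154, with GC and length offsets and with the block and these offsets, and 0 to 3 on leaving out 1 library. In female normal colon, knock-in against wild-type, it was 1 and became 2 with limma voom, only the compared groups or the offsets, and 0 to 1 on leaving out 1 library. Between female and male wild-type tumours it was 0 and became 1 with a mean of at least 50 counts, DESeq2 or only the compared groups, and 4 with limma voom. Between wild-type normal colons it was 2 and became 1 without a count filter, with the covariate or without libraries 152 to 154, 4 with limma voom, and 1 to 3 on leaving out 1 library. The interaction of genotype and tumour gave 0, 2 with limma voom and 0 to 1 on leaving out 1 library. That of sex and tumour gave 1, 0 with the block, with the block and offsets, with the covariate or without libraries 152 to 154, and 0 to 1 on leaving out 1 library. That of sex and genotype gave 0 and 1 with DESeq2.

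With the replicate block, tumours of wild-type males again gave 5 calls, with Bbc3 in place of Fas, and those of knock-in males 1, Phlda3 (0.86, edgeR adjusted p 0.0455) in place of Eda2r (1.51, edgeR adjusted p 0.0780). Those of wild-type females gave 7, without Mdm2 (edgeR adjusted p 0.0727). For knock-in female normal colon the block was not fitted, because its columns of the same name carry no replicate number.

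Signs changed for the following differences, none of them called. In knock-in male tumours Cdkn1a was 0.075 with the offsets and 0.053 with block and offsets, Sesn2 -0.012 with limma voom, Bbc3 0.050 with limma voom, 0.25 with the offsets and 0.23 with block and offsets, and Trp73 -0.26 with limma voom. Ccng1 in wild-type female tumours was -0.091 with limma voom. Between male tumours of both genotypes Ccng1 was -0.12 and -0.14, Trp53inp1 -0.035 and -0.049, and Fas -0.16 and -0.17 with the offsets and with block and offsets. On leaving out 1 library Trp53inp1 in wild-type male tumours ran from -0.061 to 0.18. In knock-in male tumours Cdkn1a ran from -0.49 to 0.0026, Sesn2 from -0.11 to 0.34 (-0.080 without normal replicate 2), Bbc3 from -0.50 to 0.37, Trp73 from -1.24 to 1.09 and Cdkn2a from -0.13 to 1.53. Ccng1 in wild-type female tumours ran from -0.22 to 0.31 (-0.050 without normal replicate 3). Between male tumours of both genotypes Mdm2 ran from -0.18 to 0.038, Ccng1 from -0.11 to 0.39 and Fas from -0.014 to 0.21 (-0.011 without wild-type replicate 3).

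Over all tested genes, the offsets took the calls between male tumours of both genotypes from 2315 to 1002. Scaling by library totals moved the median of all genes by 0.14 in wild-type female tumours, with 8 of the 10 targets called as before, and by 0.11 in the interaction of sex and tumour. It changed the split of higher and lower calls from 3989 and 3831 to 5050 and 3079 in wild-type female tumours, from 1429 and 1116 to 1795 and 672 between female normal colons, from 915 and 1619 to 538 and 1975 between wild-type normal colons, from 64 and 73 to 123 and 78 between wild-type tumours, and from 281 and 124 to 393 and 85 in the interaction of sex and genotype. Between knock-in normal colons 29 and 64 became 11 and 9, with DESeq2 size factors too. The lowest counts in any library were 18 for Bbc3, 20 for Fas and Phlda3 and 26 for Eda2r. Leaving out female tumour replicates 2 and 3 leaves 1 library that is assumed to vary like the other groups.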
